A study of Rattus norvegicus with 15 samples.

Results

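Canonical Wnt signalling was followed through 10 genes of its signal transduction machinery in developing rat molars. They encode the co-receptors Lrp4, Lrp5 and Lrp6, the catenins beta-catenin (Ctnnb1) and alpha-catenin (Ctnna1), the destruction complex scaffolds Apc and Axin2, the DNA-binding factors Lef1 and Tcf7, and the co-repressor Tle1. The genes were chosen by name for these roles, and all 10 had a row among the 14185 genes of the expression table. Transcripts were counted by RNA sequencing of whole tooth germs, with 1 tooth in each library and 5 libraries at each of 3 stages. All teeth came from wild type embryos of the DA/HanRj strain and none had been treated.

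The stages are called E15, E17 and E18, for which the labels give the embryonic ages E15.5, E17.5 and E18, so that the first step was longer than the second. The study took E15 molars as buds and E17 molars as caps. The labels name the tooth as molar 1 at E15 and E17 and as the lower first molar at E18. E17 replicates 1 and 2 were the left and the right tooth of the same embryo. The title code of the libraries changed with stage, so that stage and any difference in preparation that follows this code cannot be told apart. The methods of the study, which describe rat germs of E15 and E17 only, state that a little surrounding tissue remained around the germ. The E18 teeth are not described there.

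In canonical signalling a Wnt ligand brings a Frizzled receptor together with Lrp5 or Lrp6. This halts the destruction complex of Axin and Apc, which otherwise marks beta-catenin for degradation, and beta-catenin then enters the nucleus, binds Lef and Tcf factors and displaces Tle co-repressors. In teeth the pathway is needed for the bud to advance to the cap, and in the mouse the loss of Lef1 halts tooth development at the bud stage. Much of the pathway is regulated on the protein, and transcript levels do not report the amount of active beta-catenin.

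Axin2 and Lef1 are often read as target genes of the pathway, and Lef and Tcf factors bind the letters CTTTGAT. This motif was therefore searched on both strands, the opposite strand reading ATCAAAG, between 250 bases before and 50 bases after the RefSeq gene starts (build GRCr8, a later build than the Rnor_6.0 of the deposited data). A promoter was at hand for 6 of the 10 genes, namely Ctnnb1, Lef1, Tcf7, Tle1, Axin2 and Apc, and 2 of these genes held the motif in a promoter. Of 33469 rat promoters, counted singly although a gene can have several, 3.63% held it. The shares are thus counted in different units, and their difference was not tested. Both matches are shown 5′ to 3′ on the strand of the gene, with the motif in capitals.
Tcf7: tgcccgcggtgcCTTTGATgttccgacccg
Axin2: tttactttcttgCTTTGATgttgggtagat
The Tcf7 match lay at chr10:36954266-36954295 on the minus strand, with the motif beginning at position -4 and running across the gene start. The Axin2 match lay at chr10:94398641-94398670 on the plus strand, with the motif beginning at position -132 from the start used, which is inside the annotated span of the gene. A match of letters is no measure of binding, and binding was not measured here.

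The libraries held between 10993502 and 27571541 counts, and the lowest count of any of the 10 genes was 392 (Tcf7, E17 replicate 1). Levels are given as normalized counts, that is, counts divided by the size factor of the library, and are compared between stages and not between genes, because gene length was not taken into account. On the log2 scale across genes, the mean correlation of a library with the others of its stage was between 0.955 and 0.983 in 14 libraries and 0.911 in E18 replicate 3. E15 replicate 3 had the lowest value of its stage (0.955). Values without these libraries are given where they bear on a result.

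Transcripts of 3 genes differed between E15 and E17. Tle1 and Axin2 fell and Lrp4 rose, whereas the remaining 7 genes did not pass the threshold of 0.05 on the adjusted p-value (edgeR quasi-likelihood test, adjusted over all genes tested). Of all 12627 genes tested, 18.3% passed, 11.3% higher and 7.02% lower at E17. Between E17 and E18 none of the 10 genes passed in edgeR, at a background of 2.54% of 12718 genes. The unadjusted p-value was under 0.05 for 3 of the 10 (Lef1, Tle1 and Lrp6), and DESeq2 also called none. Between E15 and E18, where 21% of 12661 genes passed (14.2% higher and 6.73% lower), 5 of the 10 were called, with Lrp4 and Lef1 higher and Tle1, Axin2 and Lrp6 lower at E18. The teeth of both stages did not overlap for 3 of the 10 genes between E15 and E17 (16.3% of all genes), 0 between E17 and E18 (6.78%) and 5 between E15 and E18 (23%). The last 5 were Lrp4, Ctnnb1, Tle1, Axin2 and Lrp6. They are not the same 5 as those called, since Ctnnb1 was not called and the teeth overlapped for Lef1. The 3 comparisons share libraries and are not independent of each other.

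**Figure D1:**
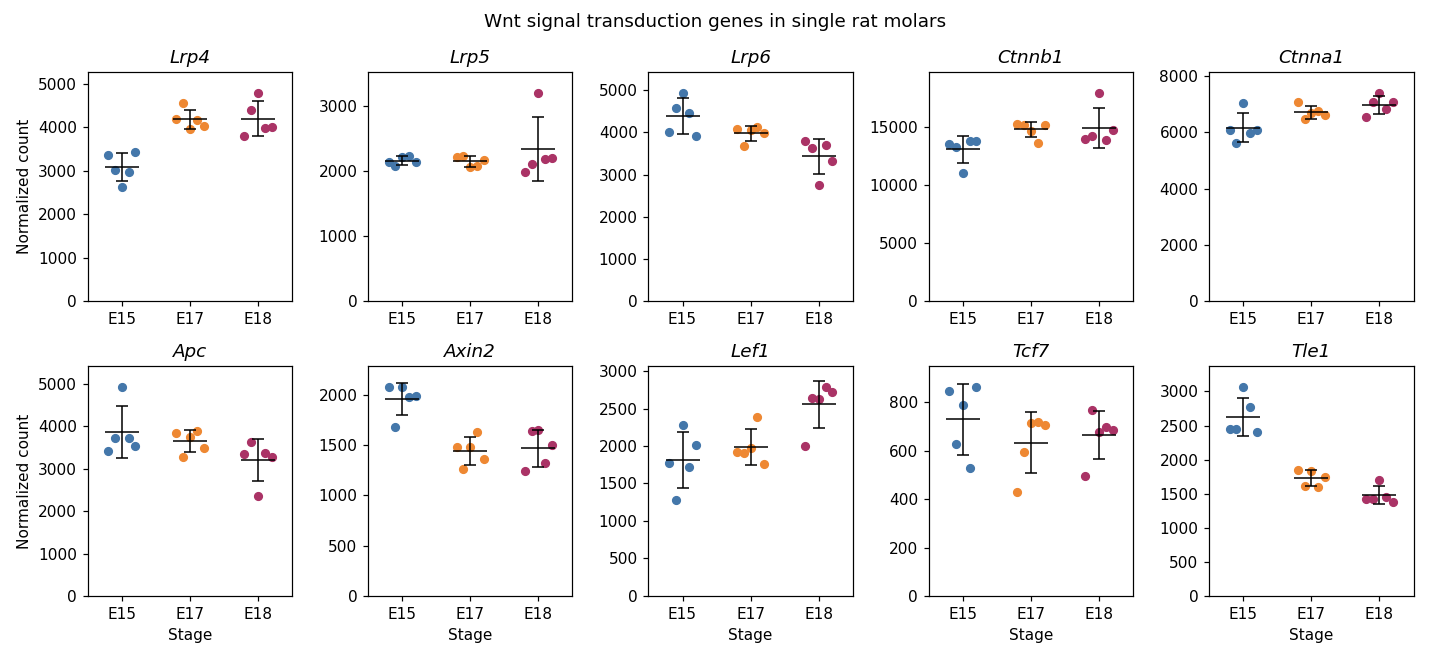
Normalized counts (vertical axes, from 0) of the 10 genes in single molars at E15, E17 and E18. Each point is 1 tooth, and the bars are the mean and SD of 5 teeth. Tle1 and Axin2 lay lower and Lrp4 higher in all E17 and E18 teeth than in any E15 tooth, and E18 replicate 3 (middle point at E18) stood apart in Ctnnb1, Apc, Lrp5 and Tle1.

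Among the co-receptors, Lrp4 rose and Lrp6 was lower at the last stage, while Lrp5 varied little outside a single library. Lrp4 is related to Lrp5 and Lrp6 and acts in teeth as a regulator of Wnt and BMP signalling that binds the antagonist Sostdc1. Its normalized counts were 3355, 3026, 2630, 2977 and 3432 at E15, then 4183, 4553, 3971, 4177 and 4025 at E17, and 3807, 4395, 4796, 3989 and 4010 at E18. Every tooth at E17 and E18 was above every tooth at E15, which was the case, in the direction of higher, for 9.23% of all genes at E17 and 12.7% at E18. Lrp4 rose by 36.5% from E15 to E17 (log2 fold change 0.45 ± 0.07 SE, adjusted p = 0.000944, edgeR, n = 5 per stage). The difference between E18 and E15 had the same size (0.45 ± 0.10, adjusted p = 0.00729), and that between E18 and E17 was 0.01 ± 0.08 (adjusted p = 0.973). Without E15 replicate 3 the first value was 0.40, and without E18 replicate 3 the difference between E18 and E15 was 0.40.

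Lrp6 is the co-receptor that carries most canonical signalling together with Lrp5. It had 4003, 4586, 4938, 4467 and 3911 normalized counts at E15, then 4073, 3679, 4061, 4117 and 3981 at E17, and 3785, 3619, 2764, 3703 and 3318 at E18. All E18 teeth were below all E15 teeth, as were those of 10.3% of all genes, while the E17 teeth overlapped those of both other stages. Between E15 and E18 Lrp6 fell by 21.0% (-0.34 ± 0.10, adjusted p = 0.0396, edgeR), and it differed by -0.13 ± 0.07 between E15 and E17 (adjusted p = 0.228). This call was fragile. Without E18 replicate 3, which had the lowest level, the value was -0.27 (adjusted p = 0.0260), whereas without E15 replicate 3, which had the highest level, it was -0.29 (adjusted p = 0.0809), and 8 of 16 alternative analyses did not call it.

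Lrp5 had normalized counts between 2077 and 2242 at E15 and between 2058 and 2242 at E17. At E18 the teeth had 1992, 2110, 3207, 2193 and 2200. Replicate 3 was far above the other 14 teeth, which formed a single narrow range over all stages. The log2 differences were 0.00 ± 0.05 from E15 to E17 and 0.12 ± 0.12 from E17 to E18 (adjusted p = 0.975 and 0.650, edgeR), and the latter was -0.03 without E18 replicate 3.

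Both catenins had slightly higher mean levels in the later stages, and neither passed the threshold in any comparison unless the analysis was altered. Beta-catenin is the transcriptional co-activator of the pathway and also links cadherins to alpha-catenin at cell contacts. Ctnnb1 had 13574, 13294, 11035, 13797 and 13818 normalized counts at E15, then 15326, 15203, 14722, 13699 and 15198 at E17, and 13970, 14240, 17999, 13965 and 14754 at E18. E15 replicate 3 was the lowest and E18 replicate 3 the highest of all 15 teeth. The E15 and E17 teeth overlapped, whereas the E18 teeth were all above those of E15. The log2 difference was 0.19 ± 0.07 from E15 to E17 (adjusted p = 0.0648, edgeR) and 0.20 ± 0.10 from E15 to E18 (adjusted p = 0.197). From E17 to E18 it was 0.02 ± 0.09 (adjusted p = 0.936). The first of these passed with DESeq2 (0.18, adjusted p = 0.0426) and in edgeR without E15 replicate 3 (0.13, adjusted p = 0.0448). The difference between E15 and E18 was 0.13 without E18 replicate 3 (adjusted p = 0.229).

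Ctnna1, which encodes alpha-catenin and ties the cadherin and catenin complex to actin, ranged from 5626 to 7022 normalized counts at E15, from 6446 to 7048 at E17 and from 6527 to 7394 at E18. The highest E15 tooth was again replicate 3, within the range of the later stages. From E15 to E17 Ctnna1 differed by 0.13 ± 0.06 (adjusted p = 0.157, edgeR), and by 0.19 without E15 replicate 3 (adjusted p = 0.00851). From E15 to E18 the difference was 0.19 ± 0.08 (adjusted p = 0.121), and 0.24 without that library (adjusted p = 0.0360). It also passed when all 15 libraries were fitted together (0.19, adjusted p = 0.0467).

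Of both destruction complex scaffolds, Axin2 fell after E15 and Apc did not pass the threshold. Axin2 is the inducible scaffold, transcribed in response to beta-catenin and acting back on it as an inhibitor. The E15 teeth had 2076, 1679, 2073, 1980 and 1990 normalized counts, the E17 teeth 1484, 1264, 1480, 1632 and 1361, and the E18 teeth 1243, 1639, 1651, 1320 and 1498. All later teeth were below all E15 teeth, the nearest being E18 replicate 3 and E15 replicate 2, and E17 and E18 overlapped throughout. Axin2 fell by 25.8% from E15 to E17 (-0.43 ± 0.08, adjusted p = 0.00223, edgeR) and was 0.02 ± 0.10 higher on the log2 scale at E18 than at E17 (adjusted p = 0.910). The difference between E18 and E15 was -0.41 ± 0.10 (adjusted p = 0.0170). Teeth of a later stage lay wholly below E15 in 7.04% of all genes at E17. The direction and the call held in every alternative analysis of these 2 comparisons, and the value between E15 and E18 was -0.45 without E18 replicate 3.

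Apc, the scaffold that is lost in many colorectal tumours, had 3424, 3723, 4927, 3722 and 3550 normalized counts at E15 and between 3291 and 3896 at E17. At E18 it had 3360, 3639, 2362, 3375 and 3288. The highest value of the series was that of E15 replicate 3 and the lowest that of E18 replicate 3, and the other teeth of all stages overlapped. The log2 differences were -0.07 ± 0.09, -0.19 ± 0.11 and -0.26 ± 0.13 for E17 against E15, E18 against E17 and E18 against E15 (adjusted p = 0.639, 0.440 and 0.190, edgeR). The first was 0.03 without E15 replicate 3, and the second was -0.10 without E18 replicate 3.

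In the nucleus, Tle1 and Lef1 moved in opposite directions. Tle1 is a Groucho co-repressor that Lef and Tcf factors bind in the absence of beta-catenin. It had 2444, 2455, 3062, 2766 and 2404 normalized counts at E15, then 1841, 1616, 1829, 1594 and 1745 at E17, and 1422, 1426, 1705, 1458 and 1383 at E18. Stages E15 and E17 were separated by a wide gap, and at E18 only replicate 3 reached into the range of E17. Tle1 fell by 33.9% from E15 to E17 (-0.60 ± 0.08, adjusted p = 0.000163, edgeR), and by E18 it had dropped by 43.3% from E15 (-0.82 ± 0.10, adjusted p = 0.000149). These were the largest changes among the 10 genes in both comparisons. From E17 to E18 the difference was -0.22 ± 0.08 (adjusted p = 0.211), and without E18 replicate 3 it was -0.29 and passed (adjusted p = 0.00930). Without E15 replicate 3, the highest of its stage, the first value was -0.53.

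Lef1 can switch target genes on with beta-catenin and off without it. It had 1775, 1280, 2280, 1714 and 2013 normalized counts at E15, then 1913, 1903, 1968, 2393 and 1756 at E17, and 1997, 2647, 2626, 2784 and 2715 at E18. The E15 teeth were widely spread and overlapped those of E17, and 4 of the 5 E18 teeth were above every earlier tooth. The exception, E18 replicate 1, was the deepest library. Lef1 was 0.14 ± 0.13 higher on the log2 scale at E17 than at E15 (adjusted p = 0.496, edgeR) and 0.36 ± 0.11 higher at E18 than at E17 (adjusted p = 0.133). Between E15 and E18 it rose by 41.9% (0.50 ± 0.15, adjusted p = 0.0327). This call was lost when any of 6 single libraries was left out (E15 replicates 1, 2 and 4, and E18 replicates 2, 4 and 5), with values between 0.40 and 0.50 and adjusted p between 0.0541 and 0.0788. Without E15 replicate 3, the highest tooth of its stage, it was 0.60 (adjusted p = 0.0148). Without E18 replicate 1 the second step passed at 0.44 (adjusted p = 0.0319).

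Tcf7, whose product acts redundantly with Lef1 in several tissues, had the fewest counts of the 10 genes and a wide spread. Its normalized counts ranged from 528 to 862 at E15, from 428 to 720 at E17 and from 497 to 767 at E18, and all stages overlapped. The log2 differences of -0.20 ± 0.16, 0.07 ± 0.16 and -0.13 ± 0.16 for the first step, the second step and both together did not pass (adjusted p = 0.437, 0.832 and 0.587, edgeR). With SEs of this size, changes as small as that of Ctnnb1 were not detectable for Tcf7.

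**Figure D2:**
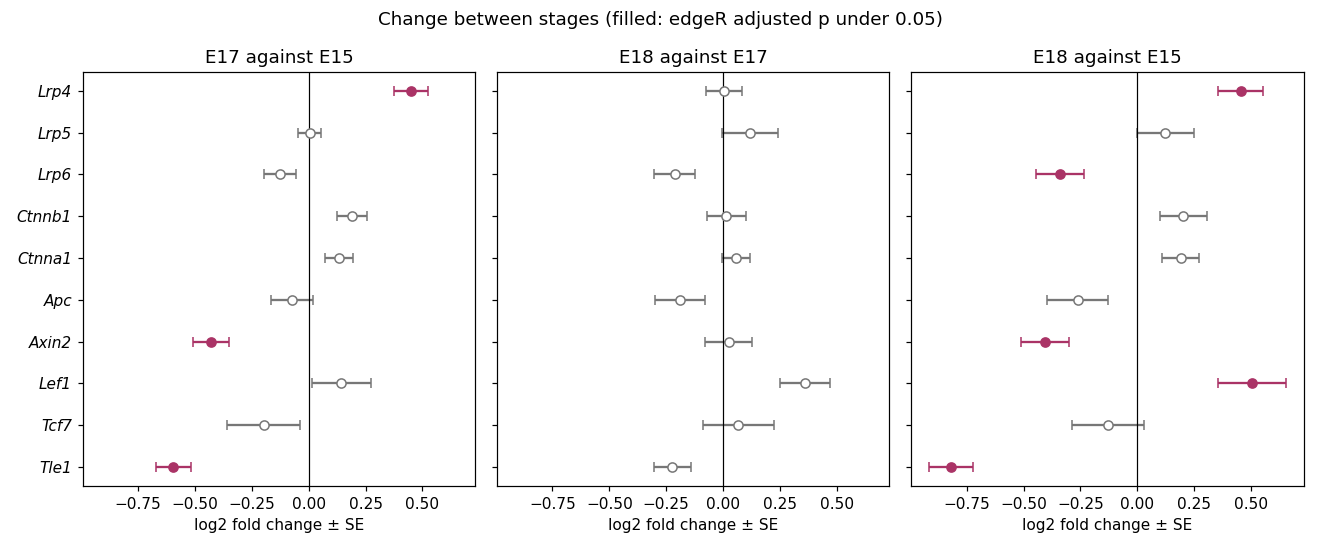
Log2 fold change between stages (horizontal axes) of the 10 genes, ordered from co-receptors to nuclear factors. Points are edgeR estimates from 5 against 5 libraries, bars are ± 1 SE and filled points passed the threshold on the adjusted p-value. There were 3 calls at E17 against E15, 0 at E18 against E17 and 5 at E18 against E15.

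Whether the second step differed from the first was tested directly, as the change from E17 to E18 minus the change from E15 to E17. In edgeR 0 of the 10 genes passed (background 0.551% of 12894 genes), 3 had an unadjusted p-value under 0.05, and DESeq2 called 0 as well. These 3 were Lrp4 (-0.44 ± 0.15, adjusted p = 0.279), Axin2 (0.46 ± 0.17, adjusted p = 0.368) and Tle1 (0.38 ± 0.15, adjusted p = 0.432), which had each changed most in the first step. A call in the first step and none in the second is therefore not shown to be a difference between the steps. The E17 libraries enter both steps with opposite signs, and the steps differ in length.

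Ratios between genes of the same library do not depend on how libraries are scaled. For 6 pairs the log2 ratio of counts was compared between stages by a two-sided exact permutation test over teeth, adjusted over all 18 tests. With 5 teeth against 5 the smallest p-value this test can give is 0.00794. The members of the pairs were chosen for their roles, with the levels already known. The ratios reuse the counts of the single-gene tests above, so that their p-values are no separate support for those results.

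The ratio of the co-repressor Tle1 to Lef1 declined over the stages. Its log2 values were 0.46, 0.94, 0.43, 0.69 and 0.26 at E15, then -0.06, -0.24, -0.11, -0.59 and -0.01 at E17, and -0.49, -0.89, -0.62, -0.93 and -0.97 at E18. All E15 teeth were above all later teeth, and at E17 only replicate 4 reached into the range of E18. The mean differed by -0.75 between E15 and E17 and by -1.34 between E15 and E18 (adjusted exact p = 0.0204 for each). From E17 to E18 the difference was -0.58 (adjusted exact p = 0.0357). It was -0.57 (0.0571) when both teeth of the shared E17 embryo were joined and -0.62 (0.0714) without E18 replicate 3. In both cases the exact test has fewer arrangements.

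Axin2 fell relative to Ctnnb1. The log2 ratio was between -2.98 and -2.41 at E15, between -3.59 and -3.07 at E17 and between -3.49 and -3.12 at E18, with no overlap of E15 with the later stages. The difference was -0.62 between E15 and E17 and -0.61 between E15 and E18 (adjusted exact p = 0.0204 for each), and 0.01 between E17 and E18 (0.958). Without E15 replicate 3, which had the highest ratio, the first difference was -0.54 (adjusted exact p = 0.0357).

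Lrp4 rose relative to Lrp6. The log2 ratio of Lrp4 to Lrp6 was between -0.91 and -0.19 at E15, between -0.03 and 0.31 at E17 and between 0.01 and 0.80 at E18. It was 0.58 higher at E17 and 0.80 higher at E18 than at E15 (adjusted exact p = 0.0204 for each), and without E18 replicate 3 the latter difference was 0.67. Without E15 replicate 3, which had the lowest ratio, the differences were 0.48 and 0.70 (adjusted exact p = 0.0357 for each). The ratio of Lrp5 to Lrp6 differed by 0.45 between E15 and E18 (adjusted exact p = 0.0476), but by 0.25 without E18 replicate 3 (adjusted exact p = 0.0952), where this ratio was 0.21 against -0.93 to -0.59 in the other E18 teeth.

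Lef1 gained on Tcf7 over the whole period. The log2 ratio was 1.07, 1.03, 1.53, 1.70 and 1.22 at E15 and 2.0, 1.79, 1.95, 2.0 and 1.99 at E18, without overlap, while the E17 teeth were spread from 1.31 to 2.16. It was 0.64 higher at E18 than at E15 (adjusted exact p = 0.0204), whereas the single steps of 0.36 and 0.28 did not pass (0.156 and 0.165). The ratio of Ctnnb1 to Ctnna1 differed by 0.06 and -0.05 in the single steps and by 0.01 overall (adjusted exact p of 0.958, 0.533 and 0.976).

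**Figure D3:**
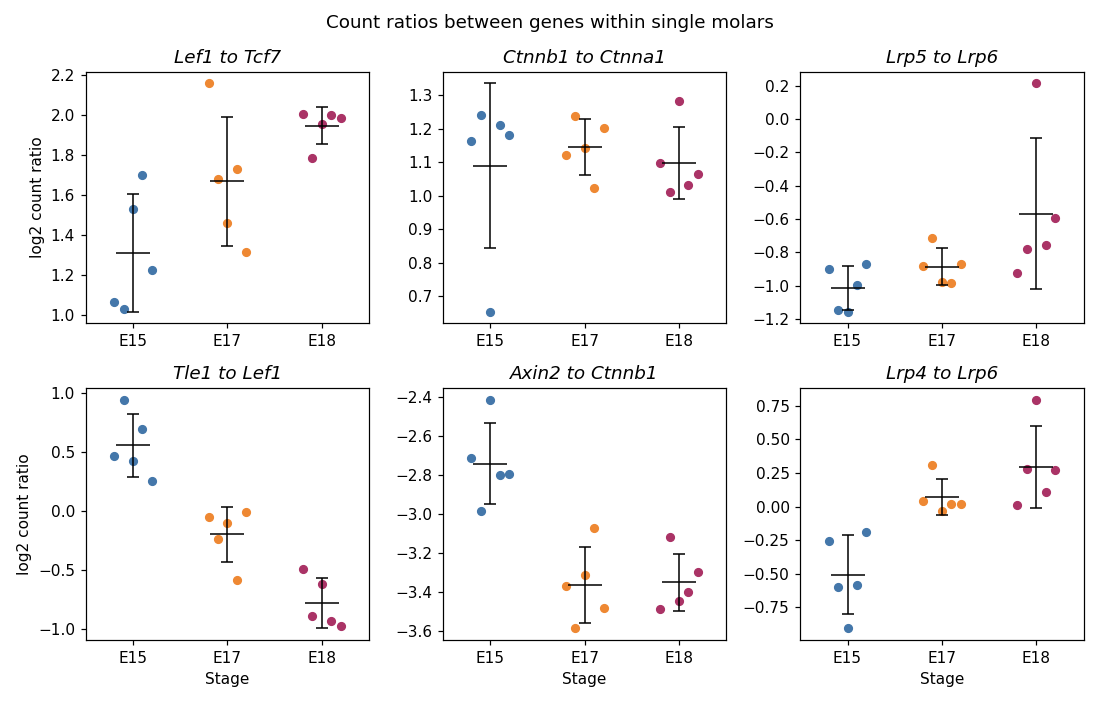
Log2 ratio of counts between 2 genes within single molars (vertical axes, which do not start at 0) at the 3 stages. Each point is 1 tooth, and the bars are the mean and SD of 5 teeth. Tle1 to Lef1 and Axin2 to Ctnnb1 were lower and Lrp4 to Lrp6 was higher in every later tooth than at E15.

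Levels of tissue marker genes also changed over the same stages. All 5 of 5 epithelial markers (Trp63, Cdh3, Perp, Lama3 and Edar) rose from E15 to E17 and from E15 to E18 in edgeR, beside 11.3% and 14.2% of all genes. Their summed normalized count was 3004 to 4758 at E15, 6462 to 7668 at E17 and 8178 to 11008 at E18. Of 7 mesenchymal markers (Pax9, Msx1, Barx1, Lhx6, Lhx8, Pdgfra and Runx2) 4 fell from E15 to E17 and 4 from E15 to E18, beside 7.02% and 6.73% of all genes. Their sum was 32772 to 36377, then 25812 to 27546 and then 21596 to 25195. All markers of both lists had counts in every library, so that both tissues of a tooth germ were represented.

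Markers of the enamel knot, the epithelial signalling centre of the cap stage (Shh, Fgf4, Fgf20, Dkk4, Cdkn1a and Slit1, 6 of 6 with a row), summed to 224 to 473 at E15, 1086 to 1495 at E17 and 1611 to 2420 at E18. Within this sum Shh averaged 16.4, 418 and 1067, whereas Dkk4 averaged 115, 145 and 110. In edgeR 3 of 5 tested rose from E15 to E17, 1 of 6 from E17 to E18 and 4 of 6 from E15 to E18. Of all genes 11.3% rose from E15 to E17, 243 of 12718 from E17 to E18 and 14.2% from E15 to E18. Matrix genes chosen for fibroblasts and bone (Col1a1, Dcn, Fbln1, Fbln2, Postn and Spp1, 6 of 7 with a row) summed to 80401 to 162582, then 164863 to 297151 and then 227302 to 304608. The study lists Col1a1, Dcn, Fbln1, Fbln2 and Spp1 among genes expressed in the developing mouse molar, so this sum does not mark surrounding tissue alone. Col1a1 alone made up most of this sum. From E15 to E17 4 of the 6 rose, and from E15 to E18 3 rose, beside 11.3% and 14.2% of all genes. Between E15 and E18 Postn differed by -0.04 (adjusted p = 0.906, edgeR). The endothelial gene Dll4 (1 of 2 with a row) had 122 to 199 normalized counts at E15 and 213 to 288 at E18. Ptprz1 and Reln were chosen as neural and glial genes (2 of 3 with a row), though the study lists both among genes expressed in the developing molar. They summed to 2354 to 3129 at E15 and 1021 to 2283 at E18. These 2 genes differed in direction, with Reln rising between E15 and E18 (0.93 ± 0.25, adjusted p = 0.0196, edgeR) and Ptprz1 at -0.74 ± 0.29 (adjusted p = 0.101), where E18 replicate 3 was the lowest tooth at 446 normalized counts. The part of these shifts in the changes of the 10 genes was not tested. In whole germs, fewer cells of a type and less RNA per cell cannot be told apart.

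The closest relatives of the 10 genes gave a mixed picture in the nucleus. Tle3, a co-repressor of the same family as Tle1, had 2602 to 3237 normalized counts at E15, 3222 to 3482 at E17 and 3244 to 4954 at E18. It rose between E15 and E18 (0.48 ± 0.12, adjusted p = 0.0151, edgeR), whereas Tle1 fell. Tcf7l2 fell over the same period (-0.81 ± 0.24, adjusted p = 0.0329), with levels of 1355 to 3811 at E15 and 999 to 1370 at E18 in which the highest, 3811, was E15 replicate 3. Without that library the value was -0.50 (adjusted p = 0.0215). Tcf7l1 differed by -0.08 ± 0.14 (adjusted p = 0.721). In the single steps 0 of these 3 genes passed in edgeR or in DESeq2, with an unadjusted p-value under 0.05 in edgeR for 2 in the first step and 1 in the second.

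A list of destruction complex and casein kinase genes, apart from Axin2 and Apc, had no calls in edgeR with all libraries, but some without the libraries that stood apart. The 10 genes tested were the kinases Gsk3a and Gsk3b, the Apc paralog Apc2, Btrc, and the casein kinase genes Csnk1a1, Csnk1d, Csnk1e, Csnk1g1, Csnk1g2 and Csnk1g3. Not all of these casein kinases act in the destruction complex. Of these 10 genes 0 passed at E17 against E15, E18 against E17 and E18 against E15, beside 18.3%, 2.54% and 21% of all genes. Their log2 differences lay between -0.32 and 0.02 at E17 against E15, where 3 had an unadjusted p-value under 0.05 and DESeq2 called 2. At E18 against E17 the range was -0.47 to 0.22, with 0 unadjusted and 0 in DESeq2, and at E18 against E15 it was -0.62 to 0.24, with 2 unadjusted and 1 in DESeq2. In these comparisons, in the same order, DESeq2 called 2880 of 12627, 636 of 12718 and 3117 of 12661 genes. Apc2 came closest in the first step (-0.32 ± 0.11, adjusted p = 0.0585), Gsk3b differed by -0.31 ± 0.14 between E15 and E18 (adjusted p = 0.127), and Gsk3a by 0.11 ± 0.09 (adjusted p = 0.441). When E15 replicate 3 was left out, Apc2 fell in the first step (-0.40, adjusted p = 0.00642), as did Csnk1a1 (-0.15, adjusted p = 0.0231), and Apc2 fell between E15 and E18 (-0.48, adjusted p = 0.0451). Without E18 replicate 3, Apc2 and Csnk1g3 fell between E15 and E18 (-0.54 and -0.32, adjusted p = 0.00340 and 0.0242). Over all genes, 2881 of 12735 passed in the first step without E15 replicate 3, against 2315 of 12627 with it. Between E15 and E18, 2475 of 12774 passed without E15 replicate 3 and 3567 of 12757 without E18 replicate 3, against 2656 of 12661. Axin1 had no row. The casein kinase gene Csnk1g3 had 38 normalized counts in E18 replicate 3 and 522 to 598 in the other E18 teeth.

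At the membrane, 1 of 8 Frizzled receptors passed between E15 and E17 and between E15 and E18, beside 18.3% and 21% of all genes. Fzd6, known for planar cell polarity, had 551 to 676 normalized counts at E15 and 811 to 948 at E17, without overlap, and rose by 0.54 ± 0.08 (adjusted p = 0.000293, edgeR) and by 0.53 ± 0.10 between E15 and E18 (adjusted p = 0.00236). Of the 3 Dishevelled adaptors, which relay the signal from Frizzled, Dvl1 rose between E15 and E18 (0.65 ± 0.17, adjusted p = 0.0183), and Dvl2 fell in the first step if E15 replicate 3 was left out (-0.22, adjusted p = 0.00948). Of the genes for ligand release, Wls and Porcn, 0 passed in any comparison in edgeR or in DESeq2, with 1 unadjusted (Porcn, first step). Wls, the carrier of Wnt ligands to the cell surface, had 637 normalized counts in E18 replicate 3 and 1787 to 2190 in the other E18 teeth.

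Among 3 other feedback inhibitors with a row, 2 rose in the comparisons in which Axin2 fell, beside 11.3% (E17 against E15) and 14.2% (E18 against E15) of all genes. Nkd2, which binds Dishevelled, had 753 to 887 normalized counts at E15, 1165 to 1424 at E17 and 1239 to 1975 at E18, and rose by 0.62 ± 0.07 in the first step (adjusted p = 8.76e-05, edgeR) and by 1.06 ± 0.12 between E15 and E18 (adjusted p = 0.000128). Rnf43, a ubiquitin ligase that removes Frizzled from the membrane, rose by 0.50 ± 0.15 and 0.79 ± 0.17 in the same comparisons (adjusted p = 0.0311 and 0.00710). Nkd1 differed by -0.01 ± 0.07 and 0.17 ± 0.11 (adjusted p = 0.947 and 0.301).

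Genes of the enamel knot that are linked to the pathway had few counts. Fgf4, reported as a target of Lef1, had 0 to 6 counts in the E15 teeth, where a count of 0 allows up to 3, and 12 to 40 counts in the E18 teeth, and passed between E15 and E18 (adjusted p = 0.00830, edgeR); the filter on low counts removed it from the first step. Fgf20 had 0.00 to 20.1 normalized counts at E15 and 12.8 to 23.2 at E17 and did not pass in the first step (adjusted p = 0.178) or between E15 and E18 (adjusted p = 0.383). Dkk4, a secreted inhibitor induced by the pathway, had 114 to 162 normalized counts in 4 E15 teeth and 0 in E15 replicate 3, and 125 to 152 in 4 E18 teeth and 12.3 in E18 replicate 3. Both libraries named above as standing apart were thus low for Dkk4 too, and it passed in no comparison.

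Ligands outside the cell changed in both directions. Of 16 Wnt ligands tested, 5 rose and 2 fell from E15 to E17, and 8 rose and 2 fell from E15 to E18, at the background shares given above. Wnt10a, an epithelial ligand of tooth development, led the rises of the first step with 98.3 to 136 normalized counts at E15 and 270 to 338 at E17 (1.33 ± 0.12, adjusted p = 8.33e-06, edgeR). The other ligands that rose in this step were Wnt11, Wnt5a, Wnt4 and Wnt6, by 0.34 to 0.55. Wnt7a passed in this step without E15 replicate 3 (1.06, adjusted p = 0.0461) and not with it (0.75 ± 0.37, adjusted p = 0.187). Wnt9b had 24 to 39 counts in the E15 teeth and 2 to 7 in the E17 teeth and fell (adjusted p = 0.000232), and Wnt2 fell by 0.68 on the log2 scale (adjusted p = 0.0315).

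In the second step 6 of 53 other Wnt pathway genes passed, 3 higher and 3 lower, beside 2.54% of all 12718 genes tested. Wnt7a had 19.7 to 32.0 normalized counts at E17 and 62.4 to 92.1 at E18 (1.78 ± 0.20, adjusted p = 0.00144, edgeR). Wnt3a and Wnt6 rose by 1.05 ± 0.19 and 0.57 ± 0.11. Wnt2 fell by 1.70 on the log2 scale, Frzb by 0.66 and Sfrp2 by 0.53. The count of 6 was not stable, and was 10 with DESeq2, 9 without E18 replicate 3, 3 when E17 replicate 1 was left out, and 2 when E17 replicate 2, 3 or 5 or E18 replicate 5 was left out. Calls over all genes moved in the same direction. They numbered 323 of 12718 with all libraries in edgeR, 636 of 12718 with DESeq2 and 713 of 12811 without E18 replicate 3. Without E17 replicate 1 they numbered 185 of 12787, and 141 to 165 in the fits that gave 2.

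Secreted antagonists changed in both directions. Sostdc1, the ligand of Lrp4 named above, had 1184 to 1456 normalized counts in 4 E15 teeth, 3362 in E15 replicate 3, and 3570 to 5027 at E17 (1.32 ± 0.26, adjusted p = 0.00328, edgeR). The difference was 1.74 without E15 replicate 3 (adjusted p = 2.99e-08). Sfrp5 and Dkk3 rose in the same step by 0.99 ± 0.23 and 0.84 ± 0.07, while Frzb fell by 0.79 and Sfrp2 by 0.26 on the log2 scale. Over the whole period 4 antagonists rose and 3 fell of 9, beside 14.2% and 6.73% of all genes. The rise of Sfrp4 was lost without E15 replicate 3 (adjusted p = 0.0835, edgeR). Dkk3 was the gene among the 54 whose second step differed from the first in edgeR (-0.74 ± 0.16, adjusted p = 0.0473), and DESeq2 called 2. Of all 12894 genes, 71 passed this test in edgeR and 214 in DESeq2.

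**Figure D4:**
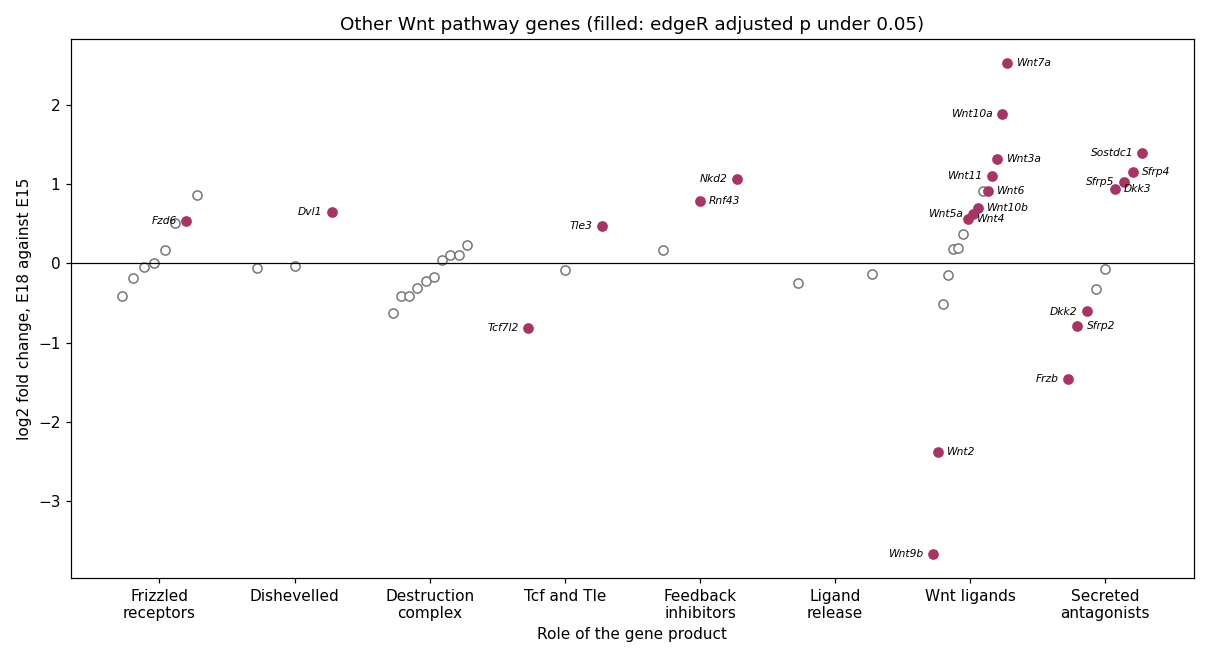
Log2 fold change between E15 and E18 (vertical axis) of the 54 other Wnt pathway genes, arranged by role along the horizontal axis. Each point is 1 gene (edgeR, 5 against 5 libraries) and filled, named points passed the threshold on the adjusted p-value. Of the 54 genes 17 rose and 6 fell, most of them ligands and secreted antagonists, beside 14.2% and 6.73% of all genes. The group labelled destruction complex, which includes all the casein kinase genes, held no filled point.

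Over the whole period the largest rises were those of Wnt7a (2.53 ± 0.34, adjusted p = 0.000331, edgeR), Wnt10a (1.88 ± 0.17, adjusted p = 3.15e-05) and Sostdc1 (1.40 ± 0.33, adjusted p = 0.0111). Those of Wnt7a and Wnt10a separated all E18 from all E15 teeth, whereas Sostdc1 overlapped through E15 replicate 3 (3362) and E18 replicate 3 (2320) alone. The largest falls were those of Wnt9b, with 1 to 6 counts in the E18 teeth, Wnt2 (-2.38 ± 0.22, adjusted p = 3.41e-05) and Frzb (-1.45 ± 0.13, adjusted p = 2.73e-05). Across all 54 other Wnt pathway genes with a row, 11 rose and 4 fell from E15 to E17 with a median log2 difference of 0.00, and 17 rose and 6 fell from E15 to E18 with a median of 0.11. Over all genes tested 11.3% rose and 7.02% fell from E15 to E17, and 14.2% rose and 6.73% fell from E15 to E18. The medians over all genes were -0.01 and -0.02. For the 10 signal transduction genes the medians were -0.04 and -0.00, with 1 rise and 2 falls and then 2 rises and 3 falls.

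Genes with the most similar course over the 15 teeth were sought among 329 named genes with at least 50 normalized counts on average, by the root mean square difference of log2 levels after centring each gene. The nearest to Ctnnb1 were Shc1 (0.0579), Fgfr1 (0.0657) and Tctn1 (0.0843), compared with a median of 0.326 over all candidates. For Lef1 they included Dlx2 (0.171) and Tle3 (0.175), with a median of 0.387, and for Axin2 they were Gli3 (0.165), Smad5 (0.169) and Maml1 (0.170), with a median of 0.412. The distances for Lef1 and Axin2 were not small beside the genes' own spread of 0.299 and 0.244. Ctnnb1 had an own spread of 0.143, so that a gene without any change would also lie below its median of 0.326. The points share libraries and stages, and the candidates are genes named in the tables of the study rather than all genes.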

How the data were processed

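RNA was sequenced from single molar germs, 15 libraries in 3 stages of 5. The authors deposited salmon expected counts, given as integers per mouse Ensembl gene and not scaled for depth or length. The submitters' processing notes name FastQC 0.11.8, Trimmomatic 0.39 and Salmon 0.99.0 for E18 and the build Rnor_6.0. The transcript set, the route from rat transcripts to mouse identifiers and the use of strand are not given in the sources used here, so reads of near-identical or overlapping genes could be split. Gene symbols were joined through the study's tables, where 399 symbols are paired with an identifier and 356 of these were in the count table. A second deposited table of HTSeq counts holds rat identifiers that could not be paired with symbols, and was not used.

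Stages were compared with the quasi-likelihood test of edgeR 4.0.16 (R 4.3.3) with TMM scaling and filterByExpr, Benjamini-Hochberg adjustment over all genes tested and a threshold of 0.05. Each fit held the 10 libraries of its pair of stages, and all 15 entered the test of the second step against the first. Normalized counts were divided by DESeq2 1.42.0 size factors. Ratios used counts plus 0.5 and an exact permutation test (scipy 1.17.1), adjusted over 18 tests. Alternatives were upper-quartile scaling, DESeq2, other filters on low counts, 1 fit of all libraries, side of the jaw as a covariate, the teeth of the shared embryo joined, another pseudocount and leaving out each library. Scripts were tested on simulated data.

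Library totals of 10993502 to 27571541 bound only counting error. Replicates are separate teeth, from separate embryos except E17 replicates 1 and 2. Replicate numbers follow accession order. The genes named are the 10 genes, their closest relatives, listed feedback inhibitors and targets, other Wnt pathway genes past the threshold (led by the largest 3 rises and 3 falls) and the 3 nearest genes to Ctnnb1, Lef1 and Axin2. Some low counts and single libraries were named after their values were seen. The 10 genes and all lists were chosen with earlier results of these data known. Some genes of the marker lists and of the nearest genes are not reported here.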

Additional observations from a re-analysis of the deposited data

Results flagged for a closer look

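In 48 groups of 5 teeth (10 genes and 6 ratios at 3 stages), 1 tooth lay apart from the other 4 in 11, by the size of its gap relative to the range of the group. Chance gives about 1 in 20 such groups, or 2.4 of 48, and groups that share libraries are not independent. E18 replicate 3 accounts for 4 of these values and E15 replicate 3 for 3.

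In E18 replicate 3 the normalized counts were 17999 for Ctnnb1 (13965 to 14754 in the other E18 teeth), 1705 for Tle1 (1383 to 1458), 2362 for Apc (3288 to 3639) and 3207 for Lrp5 (1992 to 2200). In E15 replicate 3 they were 11035 for Ctnnb1 (13294 to 13818 in the other E15 teeth) and 4927 for Apc (3424 to 3723), and the log2 ratio of Ctnnb1 to Ctnna1 was 0.65 (1.16 to 1.24). Ctnnb1 and Apc thus deviated in opposite directions in these 2 libraries. The remaining values were 1997 normalized counts for Lef1 in E18 replicate 1 (2626 to 2784), 1679 for Axin2 in E15 replicate 2 (1980 to 2076), a log2 ratio of Lef1 to Tcf7 of 1.79 in E18 replicate 2 (1.95 to 2.0) and a log2 ratio of Lrp4 to Lrp6 of 0.31 in E17 replicate 2 (-0.03 to 0.04).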

How the results depend on the processing

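No result changed its direction while called. The number of the 10 genes called between E15 and E17 was 3 to 5 when single libraries were left out (5 without E15 replicate 3), that between E17 and E18 was 0 to 1 (1 without E18 replicate 1, Lef1, and 1 without E18 replicate 3, Tle1), and that between E15 and E18 was 3 to 5, and 6 with all 15 libraries in 1 fit (which added Ctnna1). Calls among the other Wnt pathway genes between E17 and E18 numbered 2 to 9 in the same way and 10 with DESeq2. The calls over all genes moved too. From E15 to E17 they were 2315 of 12627 in the main fit and 2881 of 12735 without E15 replicate 3. From E17 to E18 they were 323 of 12718, but 442 without E18 replicate 1, 713 without E18 replicate 3 and 636 with DESeq2. From E15 to E18 they were 2656 of 12661, and 3627 of 12894 with all 15 libraries in 1 fit. They were 2028 to 2245 in the fits that called 3 of the 10 genes. Leaving out single libraries gave log2 ratio differences of 0.25 to 0.54 for Lrp5 to Lrp6 (E18 against E15), -0.68 to -0.54 for Tle1 to Lef1 and 0.19 to 0.40 for Lef1 to Tcf7 (both E18 against E17), where the second fell short of the threshold in most cases and the third passed without E17 replicate 1. With 4 teeth against 5 the exact test has fewer arrangements. Joining the teeth of the shared embryo gave -0.57 for Tle1 to Lef1 (E18 against E17). Where a call changed otherwise, the cause was not tested. Tle1, Axin2 and Lrp4 kept their calls in every alternative for E17 against E15 and E18 against E15. The alternative count table was not run, because its rat identifiers could not be paired with symbols. No paired analysis was possible because replicate numbers follow accession order and embryos of different stages are different animals. Depth did not limit the 10 genes, with at least 392 counts in every library, but it limits Fgf4, Fgf20 and Wnt9b.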
